A study of Mus musculus with 8 samples.

Results

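DNA replication and S-phase genes were followed in CD4 helper T cells from mouse spleen after activation. The list held 44 genes, chosen by name for their role in copying chromosomes and not by a threshold on their values. Of these, 43 had a probe set annotated to that gene alone, among 18193 such genes on the Affymetrix array, and Chaf1a was not analysed here. Each gene was read through 1 probe set, the one with the highest mean over the 8 arrays. Tyms, thymidylate synthase, gave signals of 22.3 to 65.2, lay above the array median on 1 array and was set aside. The other 42 members were tested together with all 12091 genes that passed the filter on dim signals. All 42 lay above the median of each of the 8 arrays, so none passed the filter only through a group in which it was high.

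The cells came from mice of 8 weeks that were wild type (WT) or deficient in IFN-gR1, the ligand-binding chain of the interferon gamma receptor (KO). All 4 groups shared magnetic purification of splenic CD4+ cells and 15 h of activation with antibodies to CD3 and CD28, so resting cells were not measured. For the final 3 h the medium held either vehicle or db-cAMP, dibutyryl cyclic AMP, a cell-permeable cyclic AMP analogue that activates protein kinase A. Each genotype with each treatment made 1 of the 4 groups, with 2 arrays each. Titles call the 2 arrays biological replicates without saying whether each had its own mouse or culture, and the p-values therefore rest on a spread between arrays that may be technical. The free-text descriptions of the 4 KO arrays name WT cells, and group assignment here followed their titles, source names and genotype entries. No source says what part of the receptor gene the KO mice lack.

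Before S phase, the origin recognition complex, Cdc6 and Cdt1 load the ring-shaped MCM helicase onto origins of replication. Cyclin E kinase then triggers S-phase entry, Cdc45, the GINS complex and Mcm10 activate the helicase, and the polymerases copy DNA while held in place by the PCNA clamp, which the RFC complex loads. In T cells these transcripts are scarce at rest and accumulate after stimulation of the antigen receptor, largely through E2F transcription factors released from the retinoblastoma protein, ahead of the first division.

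Sequence is shown for 10 members to set the promoters of genes that differed between genotypes beside those of genes that fell with db-cAMP. Cdc6, Mcm5, Mcm6, Mcm7, Mcm10, Pcna, Rrm2 and Uhrf1 are all the members that were lower in KO cells under both treatments and had a window. Orc2 and Ung had the largest falls with db-cAMP in WT cells, where Rrm2 was also called lower. The runs are the 250 bases before the annotated transcript start, from RefSeq on build GRCm38.p6, 5′ to 3′ on the gene's own strand. Capitals mark matches to any of the 4 E2F motifs searched, TTTCGCGC, TTTGGCGC, TTTCCCGC and TTTGCCGC, on either strand, with overlapping matches joined.
Cdc6 (chr11:98907901-98908150, + strand): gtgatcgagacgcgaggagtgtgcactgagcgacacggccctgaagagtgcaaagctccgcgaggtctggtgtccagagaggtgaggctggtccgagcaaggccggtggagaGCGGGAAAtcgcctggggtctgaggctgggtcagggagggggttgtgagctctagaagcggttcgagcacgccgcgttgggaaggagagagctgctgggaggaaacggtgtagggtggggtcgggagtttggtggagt
Mcm5 (chr8:75109259-75109508, + strand): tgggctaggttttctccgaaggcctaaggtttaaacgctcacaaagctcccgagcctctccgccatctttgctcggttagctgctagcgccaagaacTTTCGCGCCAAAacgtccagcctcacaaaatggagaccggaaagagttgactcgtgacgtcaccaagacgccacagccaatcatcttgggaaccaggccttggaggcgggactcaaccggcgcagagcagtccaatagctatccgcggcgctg
Mcm6 (chr1:128359706-128359955, - strand): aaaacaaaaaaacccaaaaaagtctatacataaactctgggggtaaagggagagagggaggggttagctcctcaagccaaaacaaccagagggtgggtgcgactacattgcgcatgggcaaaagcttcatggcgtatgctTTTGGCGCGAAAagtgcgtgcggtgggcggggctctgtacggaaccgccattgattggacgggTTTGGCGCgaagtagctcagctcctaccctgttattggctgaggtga
Mcm7 (chr5:138171884-138172133, - strand, the first of its 2 windows): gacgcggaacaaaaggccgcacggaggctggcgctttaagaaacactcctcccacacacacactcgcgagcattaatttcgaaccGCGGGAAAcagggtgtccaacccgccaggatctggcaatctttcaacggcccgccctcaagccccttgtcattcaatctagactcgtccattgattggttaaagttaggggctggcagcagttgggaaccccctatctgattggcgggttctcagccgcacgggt
Mcm10 (chr2:5012792-5013041, - strand): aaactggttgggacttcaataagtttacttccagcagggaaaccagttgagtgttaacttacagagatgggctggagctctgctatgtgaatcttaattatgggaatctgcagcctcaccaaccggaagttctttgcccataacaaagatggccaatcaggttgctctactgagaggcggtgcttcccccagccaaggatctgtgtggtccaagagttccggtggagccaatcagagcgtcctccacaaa
Pcna (chr2:132253181-132253430, - strand): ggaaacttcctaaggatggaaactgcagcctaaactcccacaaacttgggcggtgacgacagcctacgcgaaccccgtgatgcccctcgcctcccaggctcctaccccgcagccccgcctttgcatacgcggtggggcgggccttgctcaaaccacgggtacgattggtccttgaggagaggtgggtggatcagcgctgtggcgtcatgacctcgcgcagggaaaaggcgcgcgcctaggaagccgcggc
Rrm2 (chr12:24708004-24708253, + strand): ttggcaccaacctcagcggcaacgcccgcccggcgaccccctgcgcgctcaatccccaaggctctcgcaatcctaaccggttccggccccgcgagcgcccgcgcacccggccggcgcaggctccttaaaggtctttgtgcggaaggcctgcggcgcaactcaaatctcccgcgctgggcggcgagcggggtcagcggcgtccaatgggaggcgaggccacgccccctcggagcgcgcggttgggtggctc
Uhrf1 (chr17:56303087-56303336, + strand, the first of its 2 windows): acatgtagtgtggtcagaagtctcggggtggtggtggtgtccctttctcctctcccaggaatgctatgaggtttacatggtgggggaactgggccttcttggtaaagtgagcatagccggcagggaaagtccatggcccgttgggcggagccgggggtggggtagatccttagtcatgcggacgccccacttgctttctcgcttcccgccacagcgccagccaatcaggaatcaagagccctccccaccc
Orc2 (chr1:58505110-58505359, - strand, the first of its 2 windows): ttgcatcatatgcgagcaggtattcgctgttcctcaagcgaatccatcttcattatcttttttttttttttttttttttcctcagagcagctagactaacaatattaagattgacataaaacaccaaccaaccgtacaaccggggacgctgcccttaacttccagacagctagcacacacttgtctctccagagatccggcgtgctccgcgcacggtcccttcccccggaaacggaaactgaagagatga
Ung (chr5:114130185-114130434, + strand): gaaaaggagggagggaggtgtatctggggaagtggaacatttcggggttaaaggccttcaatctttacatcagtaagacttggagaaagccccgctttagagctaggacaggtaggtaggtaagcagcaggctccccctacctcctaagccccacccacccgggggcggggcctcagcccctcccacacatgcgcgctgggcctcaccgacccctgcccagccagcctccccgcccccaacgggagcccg

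The Cdc6 window held 1 match, 138 bases before the start, and the Mcm7 window 1 match, 165 bases before it. Mcm5 had overlapping matches on opposite strands, 153 and 149 bases before the start. Mcm6 had such a pair at 110 and 106 bases and a further match at 47 bases. The Mcm10, Pcna and Rrm2 windows and the Uhrf1 window shown held no match, and the other Uhrf1 window held 1, 185 bases before its start. The Orc2 and Ung windows held no match either. Of the 44 listed members, 37 had a RefSeq window, and these had 44 windows in all. A match to an E2F motif lay in 8 of the 44 windows (18.2%), beside 611 of 32851 windows of all genes (1.86%). Among the members lower in KO cells under vehicle, 6 of 13 windows held one (46.2%), and among the members that fell with db-cAMP in WT cells 0 of 11 did. These sets overlap. Rfc4, Rfc5 and Rrm2 were called lower in both comparisons, and their windows, counted in both shares, held no match. The cyclic AMP response element TGACGTCA was in 1 of the 44 member windows (2.27%, beside 1.55% of all windows). The CCAAT box, searched as CCAAT on either strand, was in 24 of 44 (54.5%, beside 33.8%). These are matches of letters and not measured binding sites, and the comparison of shares carries no test.

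The arrays carried T cell transcripts. The 6 markers listed for CD4 T cells summed to 63920 to 71960 on each array, but Cd3d, Cd3e, Cd3g, Cd5 and Cd28 among them are also made by CD8 T cells. Cd4 itself read 253 to 539, so these sums do not tell CD4 from CD8 T cells. The marker lists of 6 other cell types summed to 147 to 1028, with no marker listed at 0. CD8 T cell markers summed to 367 to 516 in WT and 270 to 335 in KO cells, and 1 of the 2 was lower in KO cells under each treatment. B cell markers summed to 600 to 809 in WT and 404 to 515 in KO cells, and 2 of 5 tested were lower in KO cells under db-cAMP. NK cell markers summed to 444 to 596 with vehicle and 875 to 1028 with db-cAMP, and 1 of 2 tested rose in each genotype. Gbp2, an interferon gamma-induced GTPase, read 6960 to 8103 in WT and 384 to 480 in KO cells under vehicle. The Ifngr1 probe set read 873 to 905 and 378 to 439, but its place relative to the deletion is not known, so it checks nothing.

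WT and KO arrays differed in their technical controls. Poly-A spike-in controls averaged 1441 to 2148 on WT and 4159 to 5834 on KO arrays, and hybridization controls 18077 to 27169 and 14330 to 15857. The ratio of 3′ to 5′ signal was 0.734 to 0.769 on WT and 0.779 to 0.850 on KO arrays for Gapdh, and 1.46 to 1.72 and 1.34 to 1.44 for Actb. The brightest signals were compressed on KO arrays, with a 99.9th percentile of 49975 to 55792 beside 69166 to 98871. No source says whether WT and KO arrays were processed together, so genotype and array set cannot be told apart, and the part of these controls and of the marker lists in the results below was not tested.

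Signals are linear MAS5 intensities, scaled per array by the authors. Log2 changes are those of log2(signal + 5.48), which understates changes of dim genes, and stand with the standard error of a limma fit over the 8 arrays. A gene counts as called when its Benjamini-Hochberg adjusted p over all 12091 genes is under 0.05. In WT cells db-cAMP lowered 11 of the 42 members (26.2%) and raised 2, beside a background of 18.6% of all genes lower and 16.4% higher, or 35% in either direction. The median log2 change was -0.11 over the members and 0.01 over all genes. In KO cells 4 members fell and 0 rose, beside 3.68% and 4.7% of all genes, or 8.38% in either direction, with medians of -0.06 and -0.00. With no adjustment of p, 0 members rose and 7 fell at p under 0.05 in KO cells by limma. Over all 12091 genes 1281 rose and 1199 fell. Calls were rarer among dim genes. With all genes split into 10 deciles by mean log2 signal, deciles 1, 2 and 3, the dimmest, held 0 members. In these 1.74% to 3.8% of genes fell in WT cells. Deciles 8, 9 and 10 held 9, 8 and 9 members, and 32.1%, 36.3% and 28.8% of their genes fell in WT cells. In KO cells 8.27%, 11% and 7.11% did. The members' share of falls in WT cells was thus not far above the background of all genes and below that of these bright deciles. In KO cells (9.52%) it rested on 4 genes. In bulk RNA, fewer cells of a kind and less RNA per cell cannot be told apart.

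The genotype comparison under vehicle went one way. In KO cells 16 members (38.1%) were lower and 0 higher than in WT cells, beside a background of 5.78% lower and 5.06% higher. The log2 difference was below 0 for 40 of 42 members, with a median of -0.29 beside -0.01 over all genes. The unadjusted limma test gave 26 lower and 0 higher, beside 1474 and 1339 of all 12091 genes. Under db-cAMP 13 members (31%) were lower in KO cells and 4 higher, beside 13.3% and 15.9% of all genes, with medians of -0.20 and -0.00. With arrays set to an equal 75th percentile these counts became 20 lower and 3 higher, where the median of all genes itself moved to -0.12, and 24 lower and 0 higher under vehicle. Over all genes that scaling gave 2243 lower and 1371 higher calls under db-cAMP, beside 1603 and 1926 as deposited, and 1177 and 402 under vehicle, beside 699 and 612. As deposited, deciles 8, 9 and 10 by signal had 16.5%, 22.2% and 41.5% of genes lower in KO cells under db-cAMP. Under vehicle they had 6.04%, 9.35% and 29.2%.

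The counts moved with the moderation, the probe sets and single arrays. The 16 members lower in KO cells under vehicle became 3, Pcna, Rrm2 and Uhrf1, when the intensity trend was left out of the moderation. They became 10, with 1 higher, when all probe sets of a gene were averaged. Over all genes the lower calls went from 5.78% to 0.835% without the trend and to 3.66% with averaging. The 4 falls in KO cells became 0 and 2, and the 2 rises in WT cells became 1 without the trend. Falls in KO cells over all genes went from 3.68% to 0.364% and 2.06%, and rises in WT cells from 16.4% to 12.9% without the trend. With single arrays left out, the 16 became 6 (without WT vehicle replicate 2), 6 (without KO vehicle replicate 1) or 10 (without KO vehicle replicate 2). The 4 falls in KO cells became 1 without KO vehicle replicate 2 and 0 without any of KO vehicle replicate 1, KO db-cAMP replicate 1 and KO db-cAMP replicate 2. The 2 rises in WT cells became 1 without either WT vehicle array or WT db-cAMP replicate 1. In such fits the lone array of a group was assumed to vary like the other groups, and calls over all genes dropped as well.

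**Figure D1:**
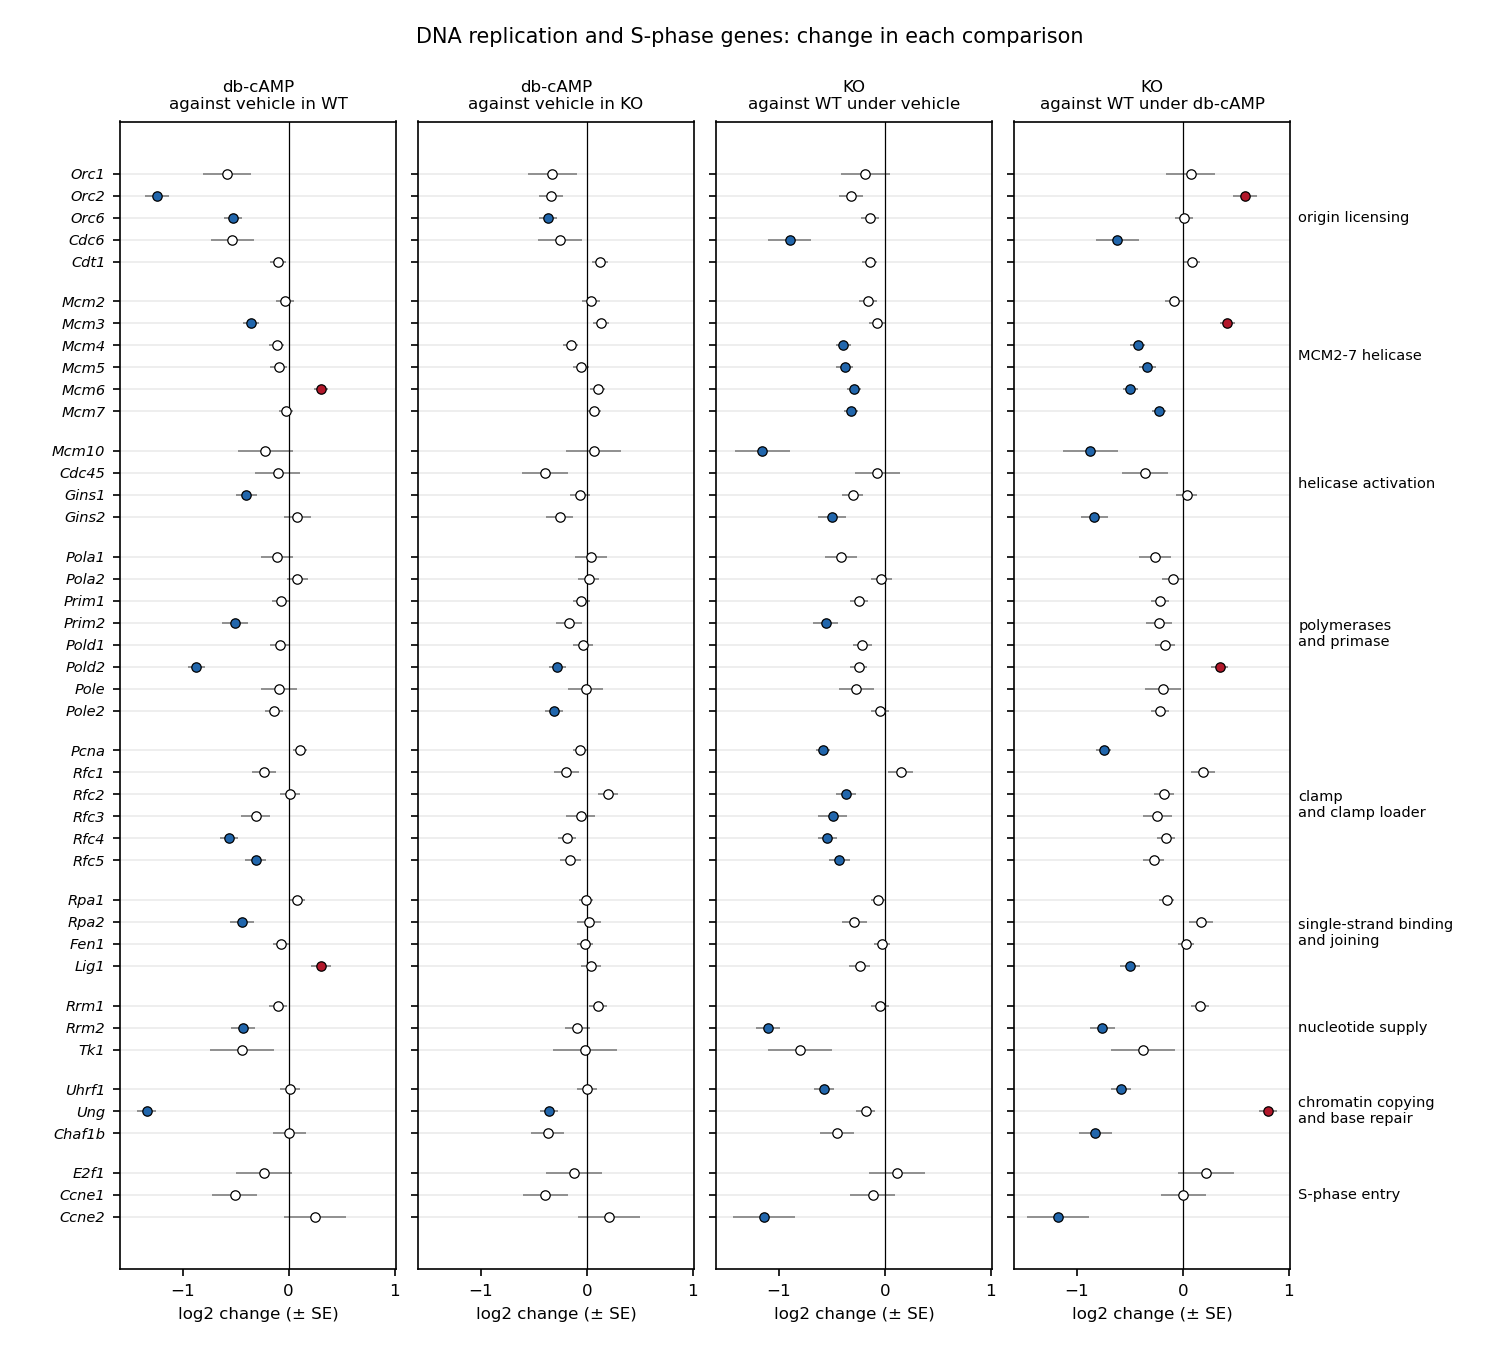
Log2 change (horizontal axis) of each of the 42 tested members, grouped by role, in the 4 comparisons named above the panels, with bars for the standard error of the fit on 8 arrays. Blue and red points passed an adjusted p under 0.05 as lower and higher, and in the KO against WT panel under vehicle all 16 coloured points lie left of 0.

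Origin licensing held 2 of the falls with db-cAMP, in Orc2 and Orc6, and a genotype difference in Cdc6. All 5 genes of this step had a log2 change below 0 with db-cAMP in WT cells. Orc2, a subunit of the origin recognition complex, read 1752.5 and 1852 in WT vehicle, 711 and 806 in WT db-cAMP, 1491 and 1400.5 in KO vehicle and 1043 and 1248 in KO db-cAMP. WT arrays with db-cAMP lay lowest, KO arrays with db-cAMP lay between them and the vehicle arrays, and no groups overlapped. The Orc2 change was -1.24 ± 0.11 in WT cells (2.37-fold lower, adjusted p = 1.46e-06) and -0.34 ± 0.11 in KO cells (adjusted p = 0.0902). Dimmer Orc2 probe sets fell to a more similar degree in the genotypes. One changed by -0.73 in WT cells (adjusted p = 0.000501) and -0.52 in KO cells (adjusted p = 0.0254). Another changed by -0.50 (adjusted p = 0.0431) and -0.41 (adjusted p = 0.214). Orc6, the smallest subunit of that complex, read 2181 and 2058 in WT vehicle, 1465 and 1481 in WT db-cAMP, 1953 and 1888.5 in KO vehicle and 1485 and 1494.5 in KO db-cAMP. Both db-cAMP groups lay below both vehicle groups, at nearly the same level in WT and KO cells. Its change was -0.52 ± 0.08 in WT cells (adjusted p = 0.000266) and -0.37 ± 0.08 in KO cells (adjusted p = 0.0171).

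The KO call for Orc6 was lost in each fit that left out a KO array, with adjusted p = 0.0795 without KO vehicle replicate 1, 0.0664 without KO vehicle replicate 2, 0.113 without KO db-cAMP replicate 1 and 0.104 without KO db-cAMP replicate 2. Cdc6, the ATPase that recruits the helicase to origins, differed by genotype instead and read 434 and 473 in WT vehicle, 363 and 268 in WT db-cAMP, 216 and 267 in KO vehicle and 199 and 203 in KO db-cAMP. Every KO array lay below every WT array of the same treatment. It was 1.86-fold lower in KO cells under vehicle (log2 -0.90 ± 0.20, adjusted p = 0.0126) and 1.54-fold lower under db-cAMP (log2 -0.62 ± 0.20, adjusted p = 0.036). The vehicle call was lost at adjusted p = 0.0807 without WT vehicle replicate 2 and 0.11 without KO vehicle replicate 1, and the db-cAMP call at 0.222 without WT db-cAMP replicate 1, 0.134 without KO db-cAMP replicate 1 and 0.12 without KO db-cAMP replicate 2. Orc1, the largest subunit of the origin recognition complex, and Cdt1, the partner of Cdc6 in loading, passed in no comparison, with log2 changes from -0.58 to 0.13 over both genes and the 4 direct comparisons.

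Among the 6 subunits of the MCM2-7 helicase, Mcm4, Mcm5, Mcm6 and Mcm7 were lower in KO cells under both treatments, whereas Mcm3 fell with db-cAMP in WT cells and Mcm6 rose. Mcm2 read 5308 and 5626 in WT vehicle, 4898 and 5794 in WT db-cAMP, 4937 and 4851.5 in KO vehicle and 4915 and 5128 in KO db-cAMP. This probe set passed in no comparison, and its WT arrays with db-cAMP overlapped the other groups. A dimmer Mcm2 probe set fell with db-cAMP in WT cells (log2 -0.45, adjusted p = 0.00199). Mcm3 read 7612 and 7542 in WT vehicle, 6274 and 5597 in WT db-cAMP, 7443 and 7002 in KO vehicle and 7851 and 8029 in KO db-cAMP. WT arrays with db-cAMP were the lowest and KO arrays with db-cAMP the highest. The Mcm3 change with db-cAMP was -0.35 ± 0.07 in WT cells (adjusted p = 0.00201) and 0.14 ± 0.07 in KO cells (adjusted p = 0.337).

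Mcm4 read 9706 and 8976 in WT vehicle, 8760 and 8479 in WT db-cAMP, 7315 and 6921 in KO vehicle and 6564.5 and 6264 in KO db-cAMP. All KO arrays lay below all WT arrays, by -0.39 ± 0.07 under vehicle (adjusted p = 0.00327) and -0.43 ± 0.07 under db-cAMP (adjusted p = 0.000498). Another Mcm4 probe set, with a mean signal of 7706, had -0.53 (adjusted p = 0.00488) and -0.21 (adjusted p = 0.168). Mcm5 lies beside Mcm2 in the ring, at the gate where DNA enters. It read 16493 and 17595 in WT vehicle, 16621 and 15279 in WT db-cAMP, 12688 and 13543 in KO vehicle and 13359 and 11975 in KO db-cAMP. Its KO arrays also lay below all WT arrays, by -0.38 ± 0.08 (adjusted p = 0.00709) and -0.33 ± 0.08 (adjusted p = 0.00522). The vehicle call was lost at adjusted p = 0.0624 without WT vehicle replicate 2 and 0.0738 without KO vehicle replicate 1, and the other at 0.0855 without KO db-cAMP replicate 2.

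Mcm6 read 13157 and 12626 in WT vehicle, 15671 and 16200 in WT db-cAMP, 10186 and 10884 in KO vehicle and 11673 and 10955 in KO db-cAMP. WT arrays with db-cAMP stood above the remaining groups. It rose by 0.31 ± 0.07 with db-cAMP in WT cells (1.24-fold, adjusted p = 0.00335), with 0.10 ± 0.07 in KO cells (adjusted p = 0.465). In KO against WT it differed by -0.29 ± 0.07 under vehicle (adjusted p = 0.0158, but 0.101 without WT vehicle replicate 1 and 0.117 without KO vehicle replicate 1) and by -0.49 ± 0.07 under db-cAMP (adjusted p = 0.000118). Mcm7 read 13713 and 15041 in WT vehicle, 14061 and 14164 in WT db-cAMP, 11724 and 11298 in KO vehicle and 12109 and 12014 in KO db-cAMP. WT arrays were higher with either treatment, and db-cAMP left no called change in either genotype. The KO difference was -0.32 ± 0.07 under vehicle (adjusted p = 0.00894, but 0.0854 without WT vehicle replicate 2 and 0.0644 without KO vehicle replicate 2) and -0.23 ± 0.07 under db-cAMP (adjusted p = 0.023, but 0.0612 without WT db-cAMP replicate 1, 0.0776 without WT db-cAMP replicate 2, 0.0993 without KO db-cAMP replicate 1 and 0.122 without KO db-cAMP replicate 2). After quantile normalization the Mcm7 difference under db-cAMP was 0.02.

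Of the 4 genes that turn the loaded ring into a moving helicase, Mcm10 and Gins2 were lower in KO cells. Mcm10, which binds the helicase as it is activated, read 279.8 and 301 in WT vehicle, 233 and 265 in WT db-cAMP, 126 and 129 in KO vehicle and 167 and 106 in KO db-cAMP. All KO arrays lay below all WT arrays, 2.23-fold under vehicle (log2 -1.16 ± 0.26, adjusted p = 0.012) and 1.83-fold under db-cAMP (log2 -0.87 ± 0.26, adjusted p = 0.022). Those calls were lost at adjusted p = 0.0715 without WT vehicle replicate 2, 0.0737 without KO vehicle replicate 1 and 0.061 without KO vehicle replicate 2 for vehicle and at 0.1 without WT db-cAMP replicate 2 and 0.227 without KO db-cAMP replicate 2 for db-cAMP. Gins2, a subunit of the GINS complex, read 1296 and 1422 in WT vehicle, 1553.5 and 1330 in WT db-cAMP, 852 and 1081 in KO vehicle and 837 and 772 in KO db-cAMP. KO arrays were again below all WT arrays. A dimmer Gins2 probe set had -0.30 under vehicle (adjusted p = 0.252) and -0.09 under db-cAMP (adjusted p = 0.728). Through the brightest set the gap was wider with db-cAMP, but that widening was not called (log2 -0.34 ± 0.18, adjusted p = 0.291). The Gins2 difference was -0.50 ± 0.13 under vehicle (adjusted p = 0.0245, but 0.0565 without WT vehicle replicate 1, 0.145 without WT vehicle replicate 2 and 0.217 without KO vehicle replicate 1) and -0.83 ± 0.13 under db-cAMP (adjusted p = 0.000266).

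Gins1, another GINS subunit, fell with db-cAMP in WT cells by 0.40 ± 0.10 (adjusted p = 0.00501, and 0.0583 without WT vehicle replicate 1). In KO cells its change was -0.06 ± 0.10. Cdc45, which joins GINS on the helicase, passed in no comparison through its brightest probe set, with log2 changes from -0.40 to -0.07. Its other probe set, with a mean signal of 94.1, fell by 1.85 with db-cAMP in WT cells (adjusted p = 0.003) and was higher in KO cells under db-cAMP by 2.07 (adjusted p = 0.00169), with an interaction above 0 (adjusted p = 0.0449).

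Among the 8 polymerase and primase genes, db-cAMP lowered Pold2 and Prim2 in WT cells and Pold2 and Pole2 in KO cells. Pold2, the accessory subunit of the lagging-strand polymerase delta, read 4408 and 4126.5 in WT vehicle, 2216 and 2444 in WT db-cAMP, 3589 and 3596 in KO vehicle and 2940 and 2987 in KO db-cAMP. WT arrays with db-cAMP lay lowest, and KO arrays with db-cAMP lay between those and the vehicle arrays. The change was -0.87 ± 0.08 in WT cells (1.83-fold lower, adjusted p = 1.5e-06) and -0.28 ± 0.08 in KO cells (adjusted p = 0.0482). The KO call was lost at adjusted p = 0.0542 without WT vehicle replicate 1, 0.0543 without WT vehicle replicate 2, 0.132 without KO vehicle replicate 1, 0.189 without KO vehicle replicate 2, 0.234 without KO db-cAMP replicate 1 and 0.188 without KO db-cAMP replicate 2. Prim2, the large primase subunit, which helps to start each new strand, read 881 and 926 in WT vehicle, 677 and 596 in WT db-cAMP, 616 and 606 in KO vehicle and 553 and 534 in KO db-cAMP. WT vehicle arrays stood above the other groups.

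The Prim2 log2 change with db-cAMP was -0.50 ± 0.12 in WT cells (adjusted p = 0.00537) and -0.17 ± 0.12 in KO cells (adjusted p = 0.506). Under vehicle Prim2 was 1.47-fold lower in KO cells (log2 -0.56 ± 0.12, adjusted p = 0.0101), a call lost at 0.0658 without WT vehicle replicate 2, 0.0551 without KO vehicle replicate 1 and 0.0574 without KO vehicle replicate 2. Pole2, the second subunit of the leading-strand polymerase epsilon, read 2160 and 2263 in WT vehicle, 2017 and 2005 in WT db-cAMP, 2156 and 2134 in KO vehicle and 1648 and 1813 in KO db-cAMP. KO arrays with db-cAMP were the lowest and the vehicle groups did not separate by a called difference. Its changes were -0.31 ± 0.08 in KO cells (adjusted p = 0.039) and -0.14 ± 0.08 in WT cells (adjusted p = 0.248), and the KO call was lost at 0.123 without KO vehicle replicate 1, 0.15 without KO vehicle replicate 2, 0.302 without KO db-cAMP replicate 1 and 0.0773 without KO db-cAMP replicate 2. The catalytic subunits Pola1, Pold1 and Pole, the polymerase alpha subunit Pola2 and the small primase subunit Prim1 passed in no comparison through their brightest probe sets. Their KO minus WT values under vehicle ran from -0.41 to -0.03. The other Prim1 probe set was lower in KO cells, by -0.48 under vehicle (adjusted p = 0.00589) and -0.43 under db-cAMP (adjusted p = 0.00518).

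The PCNA clamp and 4 of the 5 RFC clamp-loader genes were lower in KO cells under vehicle. Pcna, the ring that tethers polymerases to DNA, read 34436 and 36741 in WT vehicle, 37892 and 38694 in WT db-cAMP, 22896 and 24660 in KO vehicle and 22768 and 22844 in KO db-cAMP. The WT and KO arrays were far apart under both treatments. The KO minus WT difference was -0.58 ± 0.07 under vehicle (adjusted p = 0.000113) and -0.75 ± 0.07 under db-cAMP (adjusted p = 2.93e-06). Its changes with db-cAMP were 0.11 ± 0.07 in WT cells (adjusted p = 0.261) and -0.06 ± 0.07 in KO cells (adjusted p = 0.721). Rfc4, a small subunit of the loader, read 3600 and 3734 in WT vehicle, 2355 and 2599 in WT db-cAMP, 2492 and 2546.5 in KO vehicle and 2322 and 2104 in KO db-cAMP. WT vehicle arrays stood above the remaining groups, which lay close together.

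Rfc4 fell by 0.57 ± 0.09 with db-cAMP in WT cells (1.48-fold, adjusted p = 0.00014), with -0.19 ± 0.09 in KO cells (adjusted p = 0.231). In KO against WT it differed by -0.54 ± 0.09 under vehicle (adjusted p = 0.00123) and -0.16 ± 0.09 under db-cAMP (adjusted p = 0.182). A dimmer Rfc4 probe set also fell in WT cells (log2 -0.66, adjusted p = 0.000297). Its KO minus WT differences were -0.21 under vehicle (adjusted p = 0.254) and 0.27 under db-cAMP (adjusted p = 0.076). Rfc2, Rfc3 and Rfc5, the other small subunits, were lower in KO cells under vehicle by 1.29-fold, 1.41-fold and 1.35-fold, with adjusted p = 0.0244, 0.0353 and 0.0128. Each of these calls depended on single arrays. The adjusted p for Rfc2 was 0.136 without WT vehicle replicate 1, 0.0597 without WT vehicle replicate 2, 0.115 without KO vehicle replicate 1 and 0.0787 without KO vehicle replicate 2. For Rfc3 it was 0.163 without WT vehicle replicate 1, 0.0899 without WT vehicle replicate 2, 0.0953 without KO vehicle replicate 1, 0.193 without KO vehicle replicate 2, 0.0549 without KO db-cAMP replicate 1 and 0.0552 without KO db-cAMP replicate 2. For Rfc5 it was 0.0531 without WT vehicle replicate 1, 0.0717 without WT vehicle replicate 2, 0.0827 without KO vehicle replicate 1 and 0.0513 without KO vehicle replicate 2. Rfc5 also fell with db-cAMP in WT cells (log2 -0.31 ± 0.10, adjusted p = 0.025, but 0.0698 without WT vehicle replicate 1, 0.0987 without WT vehicle replicate 2 and 0.183 without WT db-cAMP replicate 1). Rfc1, the large subunit, passed in no comparison through its brightest probe set, with a KO minus WT value of 0.15 ± 0.12 under vehicle. A dimmer Rfc1 probe set was higher in KO cells, by 1.57 under vehicle (adjusted p = 0.000177) and 1.63 under db-cAMP (adjusted p = 4.5e-05).

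Of the genes that protect single strands and join fragments, Lig1 and Rpa2 changed with db-cAMP in opposite directions in WT cells. Lig1, the ligase that seals Okazaki fragments, read 1197 and 1171 in WT vehicle, 1516 and 1408 in WT db-cAMP, 1003 and 1004 in KO vehicle and 1022 and 1044 in KO db-cAMP. WT arrays with db-cAMP were the highest, and the KO groups lay together below both WT groups. It rose by 0.30 ± 0.10 in WT cells (adjusted p = 0.0255, but 0.0689 without WT vehicle replicate 1, 0.0956 without WT vehicle replicate 2 and 0.131 without WT db-cAMP replicate 1). Under db-cAMP it was 1.41-fold lower in KO cells (log2 -0.50 ± 0.10, adjusted p = 0.00139), and under vehicle the difference was -0.24 ± 0.10 (adjusted p = 0.15). Rpa2, a subunit of the single-strand binding protein RPA, fell by 0.44 ± 0.11 with db-cAMP in WT cells (adjusted p = 0.00819, but 0.0554 without WT vehicle replicate 1 and 0.102 without WT db-cAMP replicate 2). Rpa1, the large RPA subunit, and Fen1, the flap nuclease of fragment processing, passed in no comparison through their brightest probe sets, with values from -0.15 to 0.08. Another Fen1 probe set, with a mean signal of 2262 beside 2718, was lower in KO cells under vehicle (log2 -0.56, adjusted p = 0.00251). Another Rpa2 probe set was lower in KO cells by -0.58 under db-cAMP (adjusted p = 0.00256) and -0.41 under vehicle (adjusted p = 0.0435), and fell by 0.44 with db-cAMP in KO cells (adjusted p = 0.0476).

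For nucleotide supply, Rrm2 carried the called changes. It encodes the small subunit of ribonucleotide reductase, which makes deoxyribonucleotides, and read 1227 and 1166 in WT vehicle, 832 and 944 in WT db-cAMP, 567 and 542 in KO vehicle and 523 and 519 in KO db-cAMP. KO arrays lay at about the same level with either treatment, well below the WT arrays. In KO cells it was 2.15-fold lower under vehicle (log2 -1.10 ± 0.12, adjusted p = 4.76e-05) and 1.69-fold lower under db-cAMP (log2 -0.76 ± 0.12, adjusted p = 0.000266). It fell by 0.43 ± 0.12 with db-cAMP in WT cells (adjusted p = 0.0109, but 0.0687 without WT vehicle replicate 1 and 0.0801 without WT db-cAMP replicate 1), with -0.09 ± 0.12 in KO cells (adjusted p = 0.761). Rrm1, its large partner subunit, passed in no comparison, with KO minus WT values of -0.05 ± 0.09 and 0.16 ± 0.09. Tk1, thymidine kinase of the salvage route, had -0.80 ± 0.30 under vehicle (adjusted p = 0.12) and also passed in none.

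Ung, the uracil DNA glycosylase that removes uracil from new DNA and from immunoglobulin genes in B cells, had the largest fall with db-cAMP among the members. It read 3415 and 3492 in WT vehicle, 1381 and 1337.5 in WT db-cAMP, 3293 and 2820 in KO vehicle and 2364 and 2396 in KO db-cAMP. WT arrays with db-cAMP lay far below the rest, and KO arrays with db-cAMP fell between them and the vehicle arrays. The change was -1.34 ± 0.09 in WT cells (2.54-fold lower, adjusted p = 7.08e-08) and -0.36 ± 0.09 in KO cells (adjusted p = 0.0245, but 0.169 without KO vehicle replicate 1, 0.147 without KO db-cAMP replicate 1 and 0.127 without KO db-cAMP replicate 2). Uhrf1, which brings the maintenance methylase to copied DNA, read 1638 and 1701 in WT vehicle, 1710 and 1655.5 in WT db-cAMP, 1088 and 1153.5 in KO vehicle and 1160 and 1086 in KO db-cAMP. Only genotype separated its arrays, with KO below WT. That difference was -0.57 ± 0.09 under vehicle (adjusted p = 0.00149) and -0.58 ± 0.09 under db-cAMP (adjusted p = 0.00034). Both calls were lost with the mean of its probe sets (adjusted p = 0.1 and 0.135), and the dimmer set had -0.28 and -0.05.

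Chaf1b, a subunit of chromatin assembly factor 1, which places histones behind the fork, read 499.8 and 499.6 in WT vehicle, 467 and 540.1 in WT db-cAMP, 357 and 372 in KO vehicle and 261 and 303 in KO db-cAMP. The KO arrays were lower than all WT arrays. The gap was wider with db-cAMP, but that widening was not called (log2 -0.38 ± 0.22, adjusted p = 0.346). Its KO difference was -0.82 ± 0.16 under db-cAMP (adjusted p = 0.00134) and -0.45 ± 0.16 under vehicle (adjusted p = 0.0935). Among the S-phase entry genes, Ccne2, cyclin E2, read 201 and 261 in WT vehicle, 285 and 260.3 in WT db-cAMP, 81.9 and 123 in KO vehicle and 139 and 98.4 in KO db-cAMP. All KO arrays lay below all WT arrays. It was 2.21-fold lower in KO cells under vehicle (log2 -1.14 ± 0.29, adjusted p = 0.0239, but 0.155 without WT vehicle replicate 2 and 0.177 without KO vehicle replicate 1) and 2.27-fold lower under db-cAMP (log2 -1.18 ± 0.29, adjusted p = 0.00778, but 0.0852 without KO db-cAMP replicate 2). Cyclin E1 (Ccne1) and the transcription factor E2f1 passed in no comparison, with KO minus WT values under vehicle of -0.11 ± 0.21 and 0.12 ± 0.26.

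**Figure D2:**
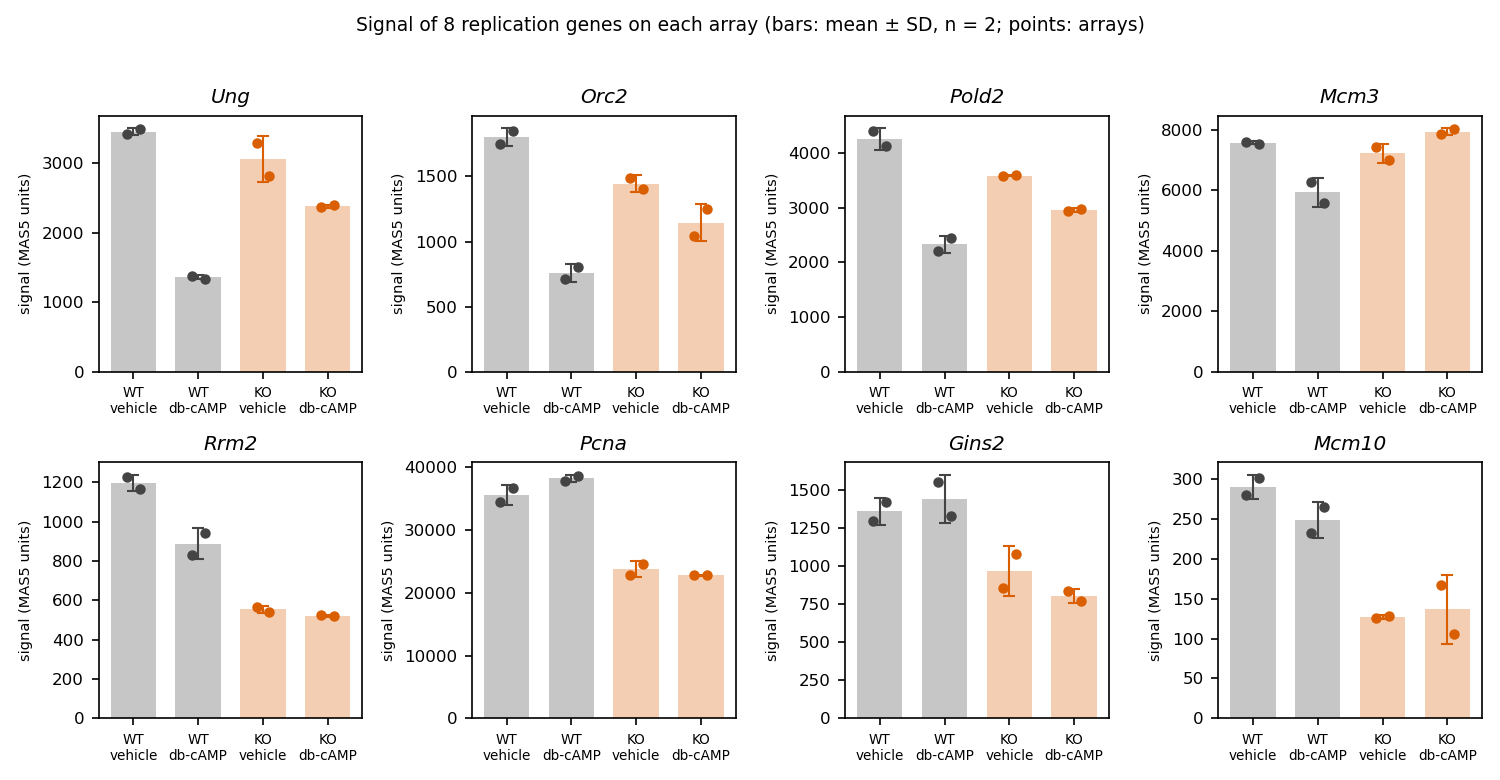
MAS5 signal (vertical axis, linear from 0) of 8 members on each array, with grey for WT and orange for KO, bars for the mean and error bars for the SD of 2 arrays. Ung, Orc2, Pold2 and Mcm3 are lowest in WT cells with db-cAMP, whereas Rrm2, Pcna, Gins2 and Mcm10 are lower in KO than in WT cells under both treatments.

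The interaction asks whether db-cAMP acted differently in the 2 genotypes. It is the log2 change in KO cells minus that in WT cells, and it passed for 4 of 42 members (9.52%), all above 0, beside 6.7% of all genes above 0 and 5.09% below. Unadjusted, 8 members passed above 0 and 0 below by limma, beside 1550 and 1317 of all 12091 genes. Its value was 0.99 ± 0.13 for Ung (adjusted p = 0.00025), 0.91 ± 0.16 for Orc2 (adjusted p = 0.00236), 0.59 ± 0.11 for Pold2 (adjusted p = 0.00361) and 0.49 ± 0.11 for Mcm3 (adjusted p = 0.00831). The same 4 genes were the members higher in KO than in WT cells under db-cAMP. Those differences were 0.81 ± 0.09 for Ung (adjusted p = 1.56e-05), 0.59 ± 0.11 for Orc2 (adjusted p = 0.00137), 0.42 ± 0.07 for Mcm3 (adjusted p = 0.000745) and 0.35 ± 0.08 for Pold2 (adjusted p = 0.00453). The interaction is also this difference minus the one under vehicle, so the match does not add separate evidence. With the intensity trend left out of the moderation, only the Ung interaction passed. With the mean of all probe sets Orc2 and Mcm3 did not pass (adjusted p = 0.171 and 0.541), and dimmer Orc2 probe sets had 0.21 and 0.08. Dimmer Mcm3 probe sets had -0.42 to 0.485, none of them called. Of the 40 other probe sets of members, 1 had a called interaction above 0, for Cdc45, and 1 below 0, for Rfc2 (-1.17, adjusted p = 0.0205). Of all probe sets tested, 4.49% had one above 0 and 3.58% below. That Rfc2 set rose by 0.87 with db-cAMP in WT cells (adjusted p = 0.00419).

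For the other falls in WT cells the difference between genotypes missed the threshold. Rfc4 had an interaction of 0.38 ± 0.12 (adjusted p = 0.0605), Prim2 of 0.34 ± 0.17 (adjusted p = 0.263) and Orc6 of 0.16 ± 0.12 (adjusted p = 0.483). The falls of the WT comparison and those of the KO comparison, which share no arrays, had 3 genes in common, Orc6, Pold2 and Ung, or 27.3% of the 11 and 75% of the 4. Over all genes tested the falls of these comparisons shared 18.3% and 92.4%. The genes lower in KO cells under vehicle and under db-cAMP shared 11, or 68.8% of the 16 and 84.6% of the 13, beside 64.2% and 28% over all genes. These 11 were Cdc6, Mcm4, Mcm5, Mcm6, Mcm7, Mcm10, Gins2, Pcna, Rrm2, Uhrf1 and Ccne2. These genotype comparisons share no arrays either. In both overlaps, however, the fit over all arrays gave each gene the same estimate of the spread between arrays. The calls being compared are therefore not independent. The genotype comparisons also share the difference between the WT and KO array sets, which cannot be told apart from genotype.

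**Figure D3:**
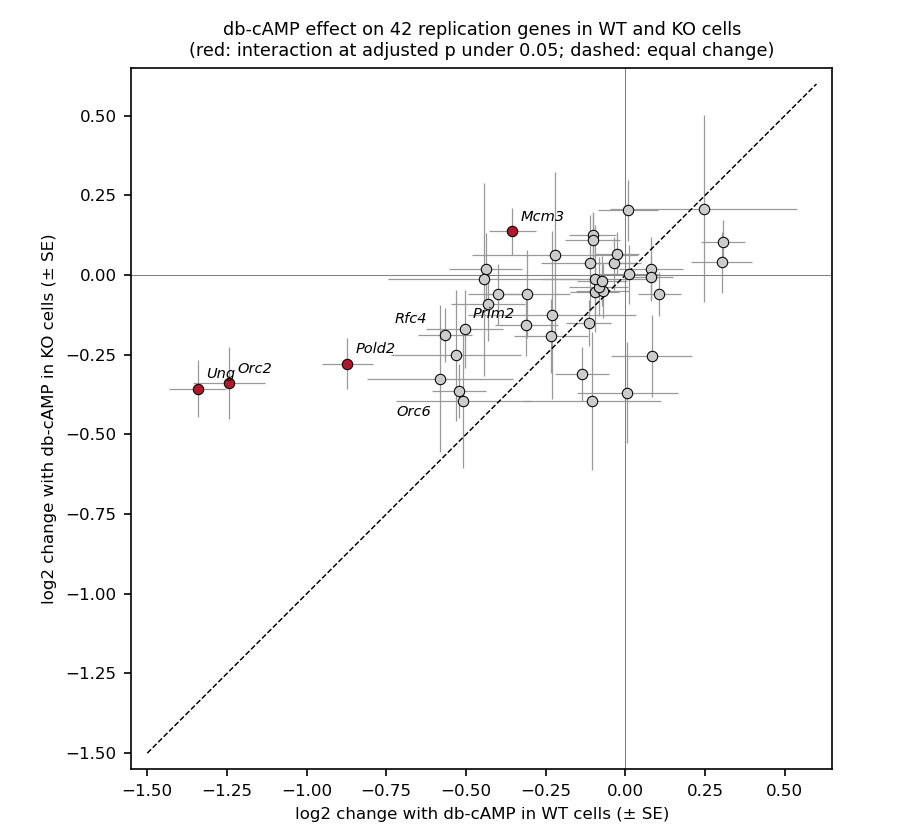
Log2 change with db-cAMP in WT cells (horizontal axis) against that in KO cells (vertical axis) for the 42 members, with standard errors of the fit and a dashed line of equal change. Ung, Orc2, Pold2 and Mcm3, in red, passed the interaction test and lie above the line.

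Bright probe sets differed between genotypes across the whole array. Among the brightest decile of all genes tested, those with a mean signal of at least 4173, the median KO minus WT log2 difference was -0.15 under vehicle, and 29.2% were called lower. That decile held 9 members, Mcm2 to Mcm7, Cdt1, Pcna and Rpa1. As deposited, 5 of these 9 were lower in KO cells under vehicle, and after quantile normalization 3 were. Mcm6 then had -0.13 (adjusted p = 0.223) and Mcm7 -0.15 (adjusted p = 0.123), whereas Pcna had -0.27 (adjusted p = 0.00372). Of the other 33 members 11 were lower as deposited and 12 after quantile normalization. Over all genes tested 5.78% were lower as deposited and 3.84% after quantile normalization. Under db-cAMP the counts of lower members were 5 and 3 of the 9 bright ones, and 8 and 11 of the other 33, beside 41.5% of all genes in the brightest decile as deposited. Over all genes tested 13.3% were lower there as deposited and 12.6% after quantile normalization. Rrm2 had -1.14 under vehicle (adjusted p = 4.36e-05) and Uhrf1 -0.60 (adjusted p = 0.00167) after quantile normalization.

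**Figure D4:**
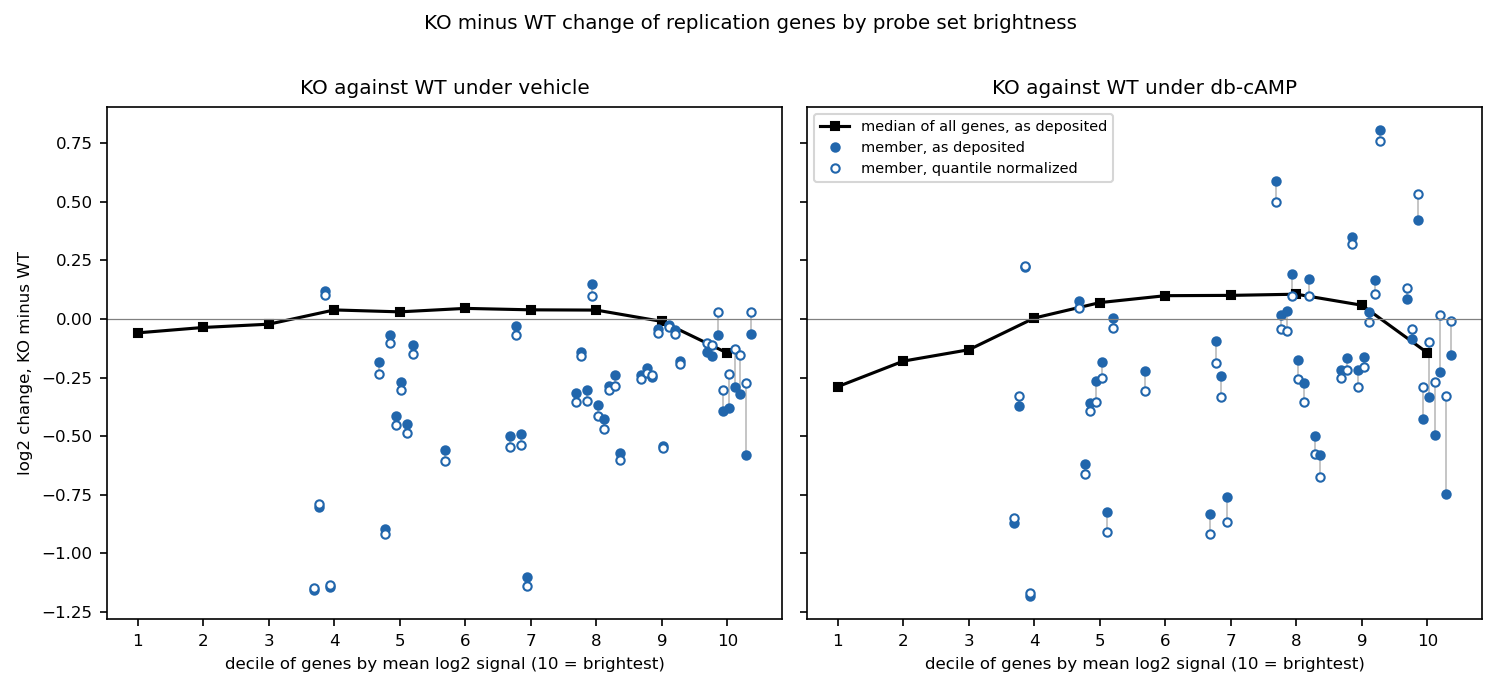
KO minus WT log2 change of each member (points) against the decile of genes by mean log2 signal in which its probe set lies, with filled points as deposited, open points after quantile normalization and black squares for the median of all genes in each decile. Members of the brightest decile move up after quantile normalization, and most others stay below 0 in the vehicle panel.

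Genes named for neighbouring functions were read from 4 further lists. Of other replication fork and chromatin assembly genes, 47 of 49 were tested. In WT cells db-cAMP lowered 11 of them (23.4%) and raised 9 (19.1%), near the 18.6% and 16.4% of all genes. Under vehicle 7 (14.9%) were lower and 2 (4.26%) higher in KO cells, beside 5.78% and 5.06% of all genes. Falls in WT cells included Cdca7, a partner of the chromatin remodeller Hells (log2 -1.37 ± 0.09, adjusted p = 7.26e-08), and Top1, topoisomerase I (log2 -0.67 ± 0.08, adjusted p = 1.58e-05). The rise of Dck, deoxycytidine kinase, was 1.05 ± 0.08 in WT cells (adjusted p = 3.71e-07) and 0.64 ± 0.08 in KO cells (adjusted p = 0.000268). Top2a, topoisomerase II alpha, read 1348 and 1160 in WT vehicle, 1263 and 1199 in WT db-cAMP, 495 and 512 in KO vehicle and 519 and 510.2 in KO db-cAMP. Its WT and KO arrays were far apart, and treatment made no called difference. It was 2.47-fold lower in KO cells under vehicle (adjusted p = 9.7e-06) and 2.38-fold lower under db-cAMP (adjusted p = 3.6e-06), where the list had 14 lower (29.8%) and 5 higher (10.6%), beside 13.3% and 15.9% of all genes.

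Of 25 E2F, RB and G1/S regulators, 9 fell (36%) and 5 rose (20%) with db-cAMP in WT cells, beside 18.6% and 16.4% of all genes. In KO cells 2 fell (8%) and 3 rose (12%), beside 3.68% and 4.7%. Cdkn1b, the cyclin kinase inhibitor p27, read 492 and 465 in WT vehicle, 1937 and 1743 in WT db-cAMP, 441 and 521 in KO vehicle and 916 and 806 in KO db-cAMP. Both db-cAMP groups were above the vehicle groups, and the WT group was the highest. It rose 3.81-fold in WT cells (adjusted p = 7.22e-08) and 1.78-fold in KO cells (adjusted p = 0.000984). The transcription factors E2f5 and E2f3 fell in WT cells, with log2 changes of -1.22 ± 0.18 (adjusted p = 0.000112) and -1.14 ± 0.22 (adjusted p = 0.00119). Cdk6, a kinase of the D-type cyclins, fell in both, with log2 changes of -1.09 ± 0.11 in WT cells and -0.61 ± 0.11 in KO cells (adjusted p = 3.29e-06 and 0.00295). Between genotypes 4 were lower and 4 higher in KO cells under vehicle (16% each, beside 5.78% and 5.06% of all genes), and 4 lower (16%) and 8 higher (32%) under db-cAMP, beside 13.3% and 15.9%. Ccna2, cyclin A2, was 2.12-fold and 2.07-fold lower (adjusted p = 0.00666 and 0.00261), while Cdc25a, the phosphatase that activates Cdk2, was 1.71-fold and 1.88-fold higher (adjusted p = 0.000494 and 3.08e-05).

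Of the S-phase checkpoint and fork repair genes, 19 of 22 were tested, and 9 fell (47.4%) and 2 rose (10.5%) with db-cAMP in WT cells, beside 18.6% and 16.4% of all genes. In KO cells 1 fell and 1 rose (5.26% each, beside 3.68% and 4.7%). Wee1, the kinase that restrains Cdk1, fell by 1.18 ± 0.15 in WT cells (adjusted p = 2.89e-05), and the checkpoint kinases Atr and Chek1 fell too, with log2 changes of -0.75 ± 0.15 and -0.69 ± 0.13 (adjusted p = 0.00106 and 0.001). Fanci, of the Fanconi anaemia pathway, read 246 and 241 in WT vehicle, 1650 and 1314 in WT db-cAMP, 223 and 245 in KO vehicle and 524 and 579.7 in KO db-cAMP. Its signal was highest in WT cells with db-cAMP and intermediate in KO cells with db-cAMP. The rise was 5.93-fold and 2.33-fold (adjusted p = 3e-08 and 0.000244). In KO against WT cells 1 gene of the list was lower (5.26%) and 0 higher under vehicle, beside 5.78% and 5.06% of all genes, and 2 were lower (10.5%) and 6 higher (31.6%) under db-cAMP, beside 13.3% and 15.9%.

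Mitosis and G2/M genes, 21 of 22 tested, gave 0 calls for db-cAMP in either genotype by limma. The share of all genes called was 35% in WT and 8.38% in KO cells. The median standard error of the list was 0.38, beside 0.17 over all genes, so 0 calls do not show that these genes were unchanged. Unadjusted, 2 of the list rose and 0 fell in WT cells, beside 2479 and 2681 of all 12091 genes. In KO cells 0 rose and 2 fell, beside 1281 and 1199. Under vehicle 21 of the 21 had a KO minus WT value below 0, with a median of -0.83, and 3 were called lower (14.3%, beside 5.78% of all genes), 0 higher. Birc5, survivin, read 353 and 318 in WT vehicle, 317 and 341 in WT db-cAMP, 112 and 124 in KO vehicle and 84.7 and 112 in KO db-cAMP. All KO arrays lay below all WT arrays. It was 2.76-fold lower under vehicle (adjusted p = 0.00161) and 3.25-fold lower under db-cAMP (adjusted p = 0.00013). The mitotic kinase Cdk1 was 2.25-fold lower under vehicle (adjusted p = 0.00974). Nusap1, a spindle protein, was also lower under db-cAMP (adjusted p = 0.00162), with 267 and 299.7 in WT and 82.6 and 22.9 in KO cells, where the last value lay below its array's median of 58.9 and no fold is given. Under db-cAMP 8 of the list were lower (38.1%, beside 13.3% of all genes) and 0 higher, with a median of -1.01.

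**Figure D5:**
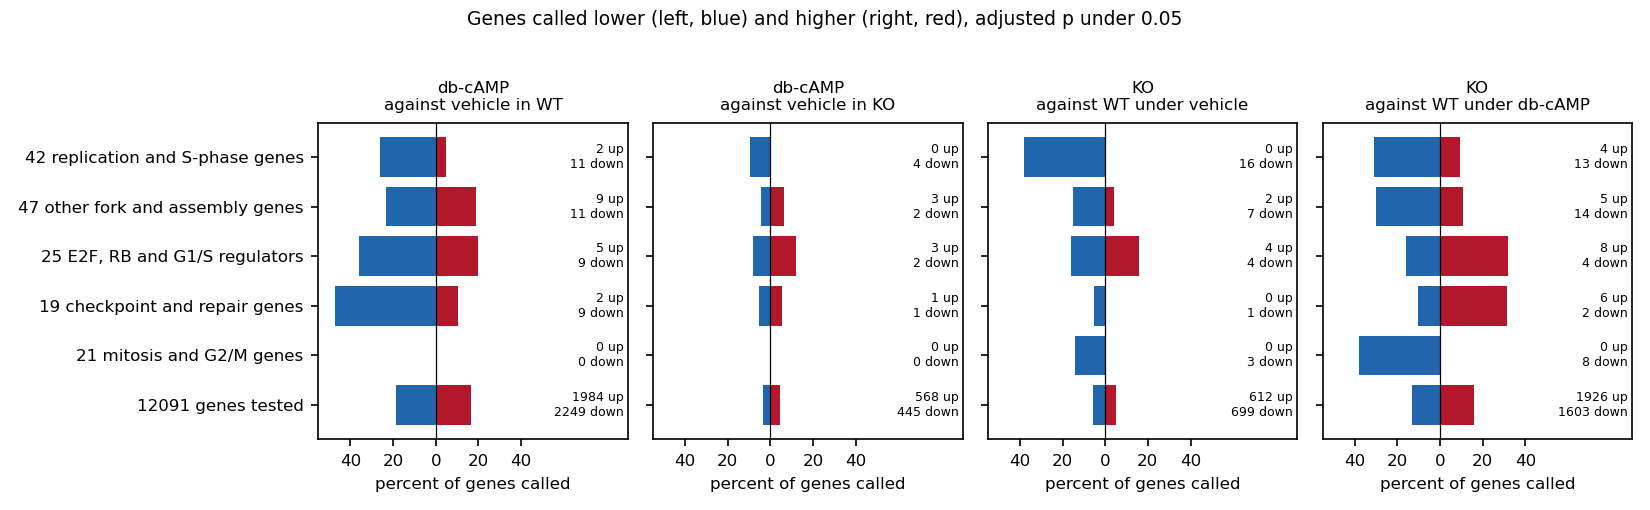
Percent of genes called lower (blue, left of 0) and higher (red, right of 0) at an adjusted p under 0.05 in each comparison, for the 42 members, the 4 neighbouring lists and all 12091 genes tested, with the counts printed at the right. Under vehicle the members have 16 lower and 0 higher, and the mitosis list has 3 lower and 0 higher.

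Of the 42 members 29 had further probe sets above the filter, 40 in all, and these did not always move together with the brightest one. Under vehicle 8 of the 40 were called lower and 3 higher in KO cells, the latter for Rfc1, Rfc2 and Orc2 (0.66, adjusted p = 0.0236). Under db-cAMP 6 were lower and 5 higher. Of all probe sets tested, 4.6% were lower and 6.34% higher under vehicle, and 10.9% and 15.5% under db-cAMP. For the 13 called members of the WT comparison, 11 of 13 other probe sets had the same sign and 5 were called in the same direction. Under vehicle 13 of 16 other probe sets shared the sign of the KO difference, 5 were called with it and 1 against it. That one reads Rfc2, with 0.67 in the fit of every probe set (adjusted p = 0.044). Under db-cAMP 15 of 18 shared the sign, 5 were called with it and 1 against it, for Mcm5, with 0.29 (adjusted p = 0.0222). Averaging all probe sets of a gene turned the KO difference under vehicle to 0.11 for Rfc2 and to 0.07 for Mcm10, whose other probe sets were too dim to test. It turned the change with db-cAMP in WT cells to -0.03 for Mcm6. That average took in an Mcm6 set with a mean signal of 28.2, too dim to test. Another Mcm6 set, with a mean signal of 7227, had 0.22 in WT cells (adjusted p = 0.0504). It was lower in KO cells under db-cAMP by -0.38 (adjusted p = 0.00237). Averaging also ended the WT falls of Mcm3 (adjusted p = 0.125), Gins1 (0.0639), Prim2 (0.429) and Rrm2 (0.485). Under vehicle averaging ended the KO calls of Mcm5 (0.238), Mcm7 (0.0609), Gins2 (0.0966) and Prim2 (0.635). Under db-cAMP it ended those of Mcm3 (0.114), Mcm5 (0.558), Mcm6 (0.371), Mcm7 (0.247) and Mcm10 (0.776). The probe sets used for Mcm3, Mcm5, Mcm7, Gins2, Pold1, Fen1, Rrm2 and Ccne1 carry the suffixes that Affymetrix gives to sets with probes shared between transcripts, so part of their signal may come from related sequences.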

How the data were processed

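RNA of CD4 T cells was hybridised to 8 Affymetrix 3′ expression arrays, 2 for each of 4 groups. Values are intensity per probe set on a linear scale, which the authors deposited after MAS5, per the submitters' processing notes. The middle 96% of the deposited values on every array averaged 500, so they had been scaled per array, and a change in total RNA per cell is not measured. For MAS5, no version is given in the sources used here. Of 45101 probe sets, 34945 had 1 gene symbol, 932 several and 9160 none, with 64 controls. Gene names come from the platform table and a RefSeq table (GRCm38.p6), through which 0 symbols changed.

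From the deposited intensity, log2(value + 5.48) was computed, the offset being the 10th percentile over all arrays. A gene was read through its brightest probe set by mean log2. Genes above the array median on at least 2 arrays were tested with limma 3.58.1 (R 4.3.3), eBayes with an intensity trend, 1 term per group, 4 residual degrees of freedom and 9.0 prior ones at the median. Adjusted p-values are Benjamini-Hochberg over 12091 genes. Python 3.11.15 with matplotlib 3.10.9 drew the figures. Precision is limited by the number of arrays. Correlations between the 2 arrays of a group were 0.961 to 0.977.

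Members named array by array are the 6 largest called rises and falls of a comparison and Mcm2 to Mcm7. From each of 4 neighbouring lists up to 4 called genes per direction were eligible. Gbp2 was chosen after its values were seen. The members and lists were chosen with earlier results of these data known. In a simulation of the db-cAMP effect in WT cells (12091 genes, 5 runs) the fit recovered 4.8% of genes changed 1.2-fold, 38.8% at 1.5-fold, 60% at 2-fold and 83.6% at 4-fold. Of 505 calls there 37 (7.33%) were false. Only 250 changed genes per fold were planted over the 5 runs, whereas 35% of all genes were called in the real comparison. The adjustment was therefore stricter in the simulation. The median standard error was 0.10 for the members and 0.17 for all genes, so the recovery rates do not carry over to the members. Alternatives covered the offset, the filter, the normalization, the probe set rule, the moderation, the samples in the fit, a replicate block and leaving out each array.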

Additional observations from a re-analysis of the deposited data

Results flagged for a closer look

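Read through the brightest probe sets, the change with db-cAMP differed between KO and WT cells for 4 members by the interaction term of the limma fit over 8 arrays. The difference, KO minus WT on the log2 scale, was 0.99 for Ung, 0.91 for Orc2, 0.59 for Pold2 and 0.49 for Mcm3. Dimmer Orc2 probe sets had 0.21 (adjusted p = 0.546) and 0.08 (adjusted p = 0.897). For Ung, Orc2 and Pold2 both db-cAMP arrays lay below both vehicle arrays in each genotype, with the wider gap in WT cells. For Mcm3 they lay below in WT and above in KO cells. Dimmer Mcm3 probe sets had differences of 0.485 (adjusted p = 0.102), 0.27 (adjusted p = 0.383), -0.01 (adjusted p = 0.99) and -0.42 (adjusted p = 0.696). Their changes in KO cells were 0.16, -0.07, -0.41 and -0.01, none of them called. No group had 4 or more arrays, so single arrays were not examined as outliers.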

How the results depend on the processing

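Over the settings tried, 5 of 13 calls for db-cAMP in WT cells held in each (Orc2, Orc6, Pold2, Rfc4 and Ung), 0 of 4 in KO cells, 2 of 16 for KO against WT under vehicle (Pcna and Rrm2), 8 of 17 under db-cAMP and 1 of 4 interactions (Ung). Without the intensity trend 1 member rose in WT cells, 0 fell in KO cells, 3 were lower in KO cells under vehicle and 1 interaction was above 0. Of all genes 12.9%, 0.364%, 0.835% and 1.2% did so. With the mean of all probe sets 2 fell in KO cells, 10 were lower and 1 higher in KO cells under vehicle, and 2 interactions were above 0. The shares of all genes were then 2.06%, 3.66%, 3.72% and 3.76%. The cause was not tested. Falls in KO cells were also 2 with every probe set tested, with cyclic loess normalization (added after seeing the data) and with the replicate block. Cyclic loess also ended the calls of Rfc5 in WT cells (adjusted p = 0.107), of Mcm5, Mcm6 and Mcm7 under vehicle (0.115, 0.249 and 0.17) and of Mcm5 and Mcm7 under db-cAMP (0.17 and 0.609). Quantile normalization ended that of Mcm5 under db-cAMP (0.304). An equal 75th percentile gave 20 members lower under db-cAMP.

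Signs turned with the mean of probe sets for Mcm6 in WT cells (-0.033), and for Mcm10 (0.070) and Rfc2 (0.11) under vehicle, and with quantile normalization for Mcm7 under db-cAMP (0.018). Leaving out 1 array gave 1 to 2 rises and 8 to 11 falls in WT cells, 0 to 4 falls in KO cells, 6 to 17 members lower under vehicle, 9 to 13 lower and 4 to 5 higher under db-cAMP, and 4 to 5 interactions above 0. The replicate block, used because titles number the arrays, left 11 falls and 2 rises in WT cells and 16 members lower under vehicle, and the calls for Pold2 and Pole2 in KO cells missed the threshold (adjusted p = 0.0647 and 0.0512). Deviations of equally numbered arrays correlated at -0.020 to 0.021, so the numbers did not pair them. The fit on 4 arrays could not be run for the interaction. The median standard error was 0.10 for the members and 0.17 for all genes.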
